A study of Mus musculus with 8 samples.

Results

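The 10 genes described here are the TCF/LEF transcription factors through which beta-catenin acts on DNA, and a set of genes that canonical Wnt signalling switches on to restrain or tune itself. They were chosen by name, as 10 of the 21291 gene rows in the deposited expression table, and 10 of 10 passed the filter on low values (a normalized count of 10 or more in 4 or more libraries). The TCF/LEF factors are Tcf7, Tcf7l1, Tcf7l2 and Lef1. The feedback genes are Axin2, Nkd1, Sp5, Lgr5, Notum and Znrf3. Polyadenylated RNA was sequenced from whole kidney pairs of mouse embryos at stage E14.5, in 4 mutant libraries (Six2-GFPcre tg/+; Etv4-/-; Etv5fl/fl) and 4 control libraries (Six2-GFPcre tg/+; Etv4+/-; Etv5fl/fl). The Cre transgene and the homozygous floxed Etv5 allele are therefore labelled as present in both groups, and by the labels the groups differ in carrying 0 or 1 functional copy of Etv4. Six2-GFPcre drives recombination in nephron progenitors, the cap mesenchyme cells that give rise to nephrons, whereas the labels do not restrict the Etv4 null allele to any cell type. The stated aim of the series is to see how the kidney transcriptome responds when both of these ETS-family factors are ablated in nephron progenitors and the cells they give rise to.

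In canonical Wnt signalling, a Wnt ligand at the cell surface stops a cytoplasmic destruction complex from degrading beta-catenin, which then enters the nucleus and binds TCF/LEF factors on DNA. Without beta-catenin the same factors keep target genes silent, and Tcf7l1 is known mainly as such a repressor, while Tcf7 and Lef1 mostly act as activators. In the mouse kidney, Wnt9b from the ureteric bud signals through beta-catenin in nephron progenitors, where weak signalling accompanies self-renewal and strong signalling accompanies the start of nephron formation. Axin2, Nkd1, Sp5, Notum, Znrf3 and Lgr5 are widely used as readouts of this pathway because many tissues induce them in response to Wnt.

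Total estimated counts were 35308934 to 38824018 in mutant libraries and 15515139 to 39548327 in controls, with control 4 the shallowest. Lars2 took 18.4% of the counts of control 4, against at most 0.476% elsewhere. Etv4 normalized counts were 164 to 294 in mutants and 2311 to 2816 in controls, and Etv5 counts were 1487 to 2657 in mutants and 3006 to 4085 in controls. Summed counts of 4 Y-linked genes were 0 to 19.6 in mutants and 3586 to 3716 in controls, so the genotype difference and the sex difference cannot be told apart in any comparison below. The kidney identity of the libraries was checked on Six2, the defining transcription factor of nephron progenitors, at 608 to 3297 in mutants and 6108 to 13695 in controls, and on Ret, the GDNF receptor of the ureteric tip, at 1573 to 3435 in mutants and 3520.3 to 5584 in controls. The number in the library name is the same for mutants 1 and 2 and controls 1 and 2, a further number is shared by mutant 4 and control 4, and mutant 3 and control 3 each have a number of their own. The labels do not say what this number stands for. The sign of the difference within a shared number was that of all libraries for 10 of the 10 genes in mutants 1 and 2 against controls 1 and 2, and for 8 of 10 in mutant 4 against control 4, with Lef1 and Axin2 as the exceptions. Both sets are part of the 8 libraries that set the sign over all, so some of this agreement is built in.

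Promoter sequence was available for 7 of the 10 genes in 12 windows, each from 250 bases before to 50 bases after an annotated RefSeq start (GRCm38.p6). These are shown because TCF/LEF factors and Etv4 and Etv5 bind known short words. The TCF/LEF words searched were those ending in A, CTTTGAA as well as CTTTGTA, together with those ending in T, CTTTGAT as well as CTTTGTT. The ETS words were CCGGAAGT as well as CAGGAAGT, and every word was searched on both strands, with no overlap between the words of one kind and the other. A TCF/LEF word was found in 3 of the 12 windows, and in 16.9% of 32851 windows over all genes. An ETS word was found in 2 of the 12 windows, and in 7.07% of all windows. Sp5 had the most TCF/LEF words, at positions -222 and -104 from its start, and an alternative start of Tcf7 had an ETS word on the opposite strand at position -26. The Tcf7l1 window is shown beside them as one with neither kind of word. Each sequence is written 5' to 3' on the strand of its gene, and capitals mark the words found.
Sp5, chr2:70474673-70474972, plus strand: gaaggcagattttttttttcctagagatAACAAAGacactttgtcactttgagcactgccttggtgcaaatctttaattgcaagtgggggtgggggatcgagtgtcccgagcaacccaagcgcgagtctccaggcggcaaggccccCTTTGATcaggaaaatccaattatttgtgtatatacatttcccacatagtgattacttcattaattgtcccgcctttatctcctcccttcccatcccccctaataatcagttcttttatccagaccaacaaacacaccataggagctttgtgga
Tcf7, alternative start, chr11:52282546-52282845, minus strand: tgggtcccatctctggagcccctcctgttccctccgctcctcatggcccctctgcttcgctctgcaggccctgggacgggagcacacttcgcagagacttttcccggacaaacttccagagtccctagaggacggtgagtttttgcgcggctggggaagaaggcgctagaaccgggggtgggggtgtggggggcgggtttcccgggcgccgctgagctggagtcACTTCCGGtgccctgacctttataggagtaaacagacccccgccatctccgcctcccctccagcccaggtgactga
Tcf7l1, chr6:72788996-72789295, minus strand: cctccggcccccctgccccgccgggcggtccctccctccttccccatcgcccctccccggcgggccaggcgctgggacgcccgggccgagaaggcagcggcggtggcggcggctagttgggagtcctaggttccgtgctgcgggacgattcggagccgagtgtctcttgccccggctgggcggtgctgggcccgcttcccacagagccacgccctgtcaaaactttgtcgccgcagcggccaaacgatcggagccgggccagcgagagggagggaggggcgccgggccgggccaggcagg
The remaining windows with a word were an alternative start of Lef1, with TACAAAG at position -147 and CAGGAAGT at position -14, and an alternative start of Tcf7l2, with CTTTGTT at position -14. Axin2, Nkd1 and the upstream start of Tcf7 had none of these words in their windows. The Nkd1 window, at 88527383 to 88527682 on chromosome 8, lies inside the gene, whose GENCODE start is at 88521354. The sequence around that start was not among the windows searched. A word is a match of letters and was not tested for binding.

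None of the 10 genes passed the threshold between mutant and control kidneys. The test was limma on log2(normalized count + 1), with p-values adjusted by Benjamini-Hochberg over 14974 genes, of which 0.301% had an adjusted p below 0.05. At an unadjusted limma p below 0.05 there were 3 of 10 genes, Tcf7 and Tcf7l1 on the lower side and Notum on the higher side, where 12.0% of all genes tested reached that level, 5.72% lower and 6.33% higher. With limma voom 0 of 10 passed after adjustment and 3 had an unadjusted p below 0.05. Mutant and control libraries did not overlap for 2 of 10, Tcf7 on the lower side and Nkd1 on the higher side, against 8.60% of all genes, 4.43% lower and 4.17% higher. The log2 fold change was negative for 7 genes and positive for 3, with a median of -0.22, beside 0.0087 over all genes tested, of which 48.3% had a negative value. Fold changes throughout are mutant over control on the log2(normalized count + 1) scale, which slightly understates those of the least abundant genes.

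**Figure D1:**
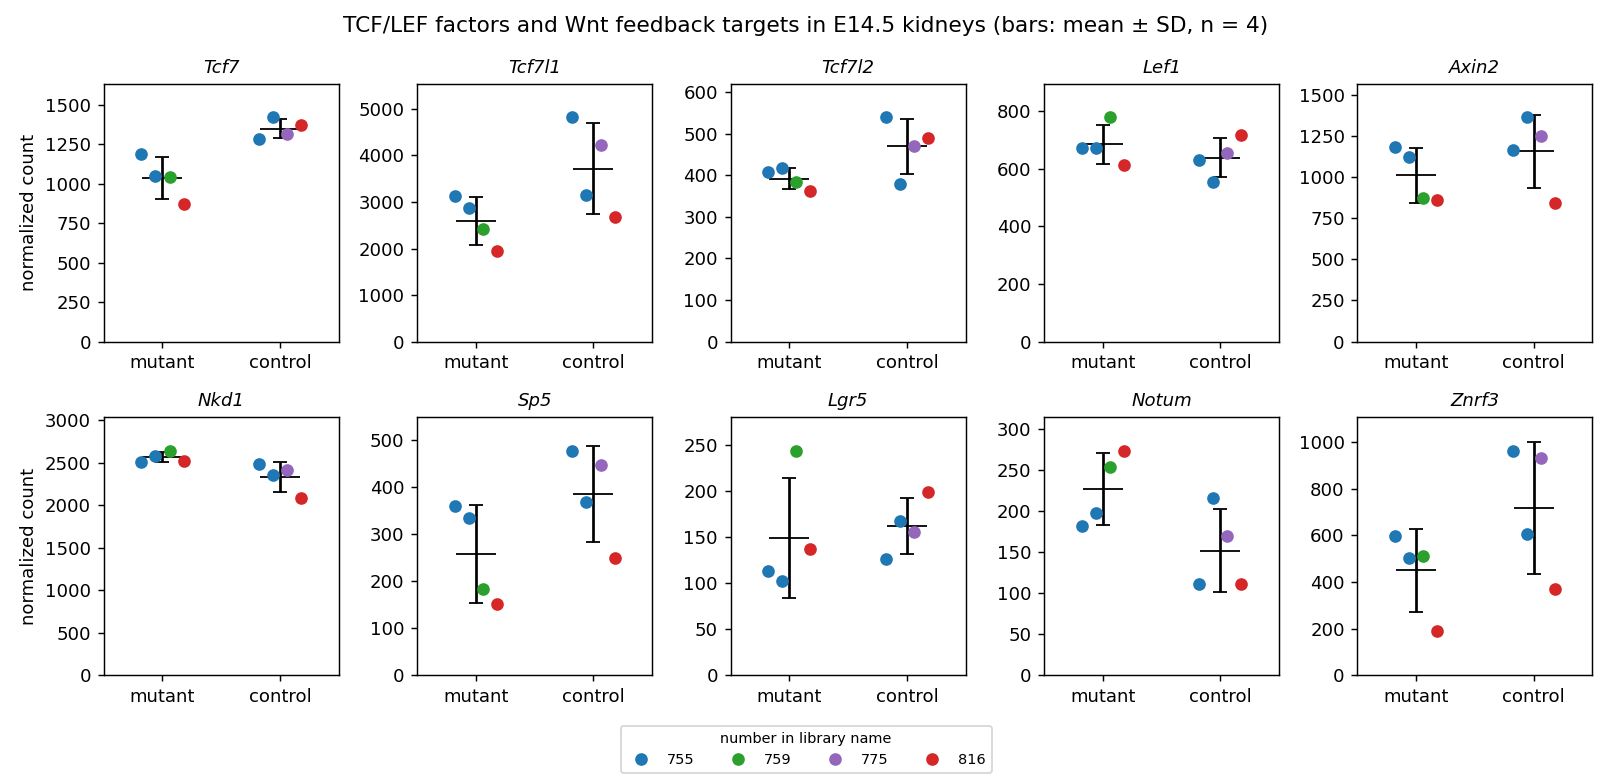
Normalized count (y axis, from 0) of each gene in the 4 mutant and 4 control libraries (x axis), with points coloured by the number in the library name and bars for mean ± SD. Tcf7 and Nkd1 separate the groups, at 869 to 1189 in mutants against 1280.3 to 1420.0 in controls and at 2516 to 2643 in mutants against 2084 to 2481 in controls.

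Among the TCF/LEF factors, Tcf7 showed the difference with the smallest p. Tcf7, also called TCF1, had 1189, 1047, 1041 and 869 normalized counts in mutants 1 to 4 and 1280.3, 1420.0, 1317 and 1373 in controls 1 to 4. Each mutant library lay below each control library, and the controls were tightly grouped. The means were 1037 ± 131 in mutants and 1347 ± 61.5 in controls (SD, n = 4 each). A log2 fold change of -0.39 (SE 0.10, 95% interval -0.62 to -0.15) had a limma adjusted p = 0.165. The log2 difference was -0.27 between mutants 1 and 2 and controls 1 and 2, which share a name number, and -0.66 between mutant 4 and control 4.

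Tcf7l1, also called TCF3 and the main repressor of the family, had 3136, 2869.6, 2424 and 1946 normalized counts in mutants 1 to 4 and 4820.1, 3143, 4229 and 2673 in controls 1 to 4. Controls 1 and 3 were well above every mutant, while controls 2 and 4 lay within or next to the mutant range. The means were 2594 ± 522 in mutants and 3716 ± 983 in controls (SD, n = 4 each). Tcf7l1 thus had a log2 fold change of -0.50 (SE 0.20, 95% interval -0.96 to -0.05, limma adjusted p = 0.357). Within the shared name numbers, Tcf7l1 differed by -0.38 in mutants 1 and 2 against controls 1 and 2, and by -0.46 in mutant 4 against control 4.

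Tcf7l1 was also the single one of the 10 genes listed in the authors' deposited table of 644 genes, which gives it a log2 fold change of -0.64 (SE 0.17) and an adjusted p of 0.00567. Those 644 genes stand beside 21291 gene rows in the deposited expression table. The mean normalized count in the authors' deposited table is 3738 for Tcf7l1, and the mean over the 7 libraries other than control 4, scaled among themselves, was also 3738, against 3155 over all 8. The same held across that table, where the mean without control 4 came within 1% of the authors' value for 626 of 628 genes that could be matched, and the mean over all 8 libraries for 4 of 628. Without control 4, the limma fit here gave Tcf7l1 a log2 fold change of -0.65 and an adjusted p of 0.116. The authors' call and the limma fit therefore rest on different sets of libraries and on different tests.

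Tcf7l2, also called TCF4, had 407, 417, 383 and 362 normalized counts in mutants 1 to 4 and 539.8, 379.9, 469.6 and 489.9 in controls 1 to 4. The mutants were close together, and control 2 fell among them. This gave a log2 fold change of -0.25 (SE 0.13, 95% interval -0.54 to 0.043, limma adjusted p = 0.491), with -0.14 in mutants 1 and 2 against controls 1 and 2 and -0.43 in mutant 4 against control 4. Lef1, an activator that is itself induced by Wnt in many tissues, had 672, 673, 779 and 614 normalized counts in mutants 1 to 4 and 632, 553, 654 and 717 in controls 1 to 4. The groups overlapped across most of their range. The log2 fold change of Lef1 was 0.099 (SE 0.12, 95% interval -0.16 to 0.36, limma adjusted p = 0.78), an interval that still allows a difference of the size seen for Tcf7l2 on the higher side. Lef1 differed by 0.18 in mutants 1 and 2 against controls 1 and 2 and by -0.22 in mutant 4 against control 4. Its fold change was 0.035 without mutant 3, 0.032 without control 2, 0.15 without mutant 4 and 0.16 without control 4.

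**Figure D2:**
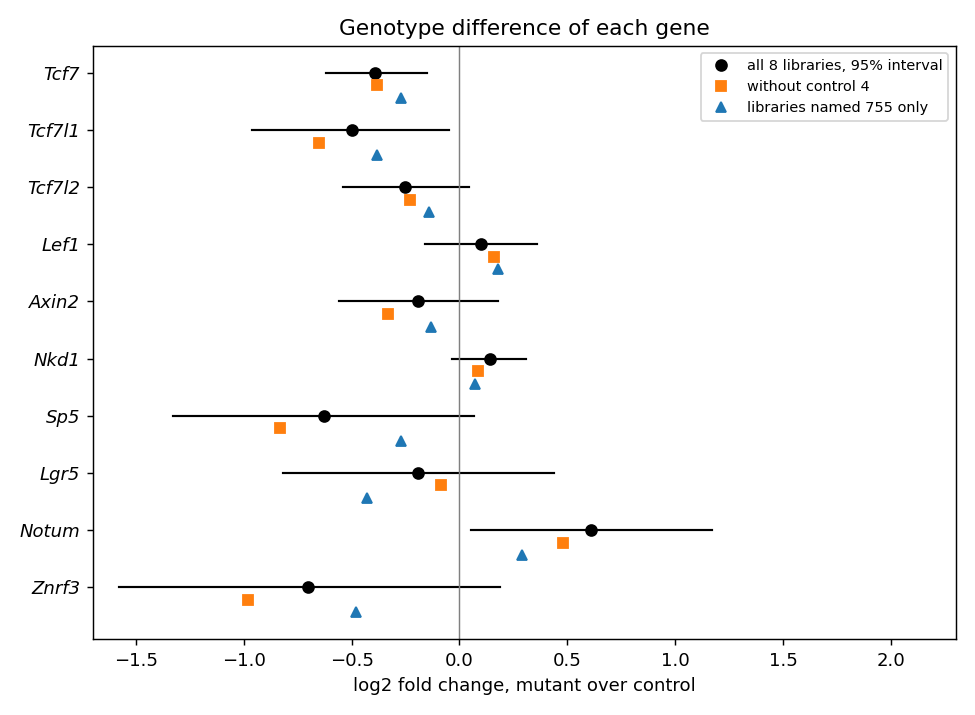
Log2 fold change of mutant over control (x axis) for each gene (y axis), with its 95% interval from limma over all 8 libraries as circle and line, and the value without control 4 (square) and in mutants 1 and 2 against controls 1 and 2 alone (triangle). The intervals of Tcf7, Tcf7l1 and Notum exclude 0 before adjustment over all genes. The 3 estimates, which have libraries in common, share a sign for each of the 10 genes. Mutant 4 against control 4, not drawn, has the opposite sign for Lef1 and Axin2.

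To compare the TCF/LEF factors with each other, normalized counts were divided by the length of the longest annotated protein-coding transcript. Tcf7l1 was the most abundant, at 853 ± 172 normalized counts per kb in mutants and 1222 ± 323 in controls, followed by Tcf7 at 419 ± 53 in mutants and 545 ± 24.9 in controls (SD, n = 4 each). Lef1 followed at 196 ± 19.7 per kb in mutants and 183 ± 19.4 in controls, and Tcf7l2 was lowest at 106 ± 6.62 in mutants and 126 ± 18 in controls. This order was the same per kb of merged exons. Within each library, which needs no depth correction, Tcf7l1 made up 56.8%, 56.4%, 51.6% and 50.6% of the TCF/LEF sum per kb in mutants 1 to 4 and 65.2%, 55.3%, 62.1% and 49.6% in controls 1 to 4. Controls 1 and 3 had the highest repressor shares, and control 4 had the lowest. The Lef1 share was 10.63%, 11.55%, 14.47% and 13.93% in mutants 1 to 4 and 7.47%, 8.50%, 8.40% and 11.62% in controls 1 to 4. Mutants therefore held a larger Lef1 share than controls 1 to 3, and control 4 lay within the mutant range. Tcf7 averaged 26.7% ± 1.07 of the sum in mutants and 26.8% ± 5 in controls (SD, n = 4 each).

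**Figure D3:**
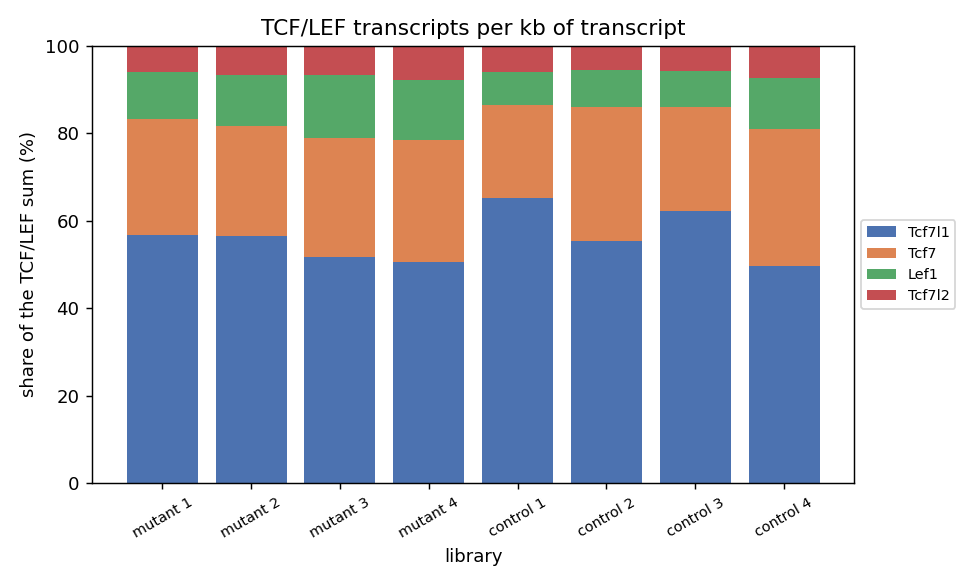
Share of the summed TCF/LEF level, in percent of normalized counts per kb of the longest protein-coding transcript (y axis), in each library (x axis), mutants left of controls. Tcf7l1 holds 49.6% to 65.2% of the sum, and the Lef1 share is 10.63% to 14.47% in mutants and 7.47% to 11.62% in controls.

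The intracellular feedback inhibitors Axin2 and Nkd1 had fold changes on opposite sides of 0. Axin2, a scaffold of the destruction complex and the most used Wnt reporter gene, had 1183, 1118, 873 and 862 normalized counts in mutants 1 to 4 and 1166, 1362, 1251 and 844 in controls 1 to 4. Mutants 3 and 4 and control 4 formed a low set across both genotypes. Axin2 had a log2 fold change of -0.19 (SE 0.17, 95% interval -0.56 to 0.18, limma adjusted p = 0.695). It was -0.33 without control 4, -0.10 without control 2, and -0.12 without mutant 3 or without mutant 4. Axin2 differed by -0.13 on the log2 scale between mutants 1 and 2 and controls 1 and 2, and by 0.031 between mutant 4 and control 4. Axin2 lies 7.13 Mb from Etv4 on chromosome 11 (108920349 to 108950783, plus strand, GRCm38), and 4 of the 10 genes are on that chromosome. The others are Notum at 18.9 Mb, Tcf7 at 49.5 Mb and Znrf3 at 96.3 Mb from Etv4. The part of this shared chromosome in their values was not tested.

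Nkd1, which binds Dishevelled and dampens the Wnt signal, had 2516, 2576, 2643 and 2525 normalized counts in mutants 1 to 4 and 2481, 2361, 2415 and 2084 in controls 1 to 4. Every mutant lay above every control, but mutant 1 exceeded control 1 by less than the SD among mutants. The means were 2565 ± 58.2 in mutants and 2335 ± 174 in controls (SD, n = 4 each), and the log2 fold change was 0.14 (SE 0.08, 95% interval -0.033 to 0.31, limma adjusted p = 0.514). It was 0.085 without control 4, and the difference was 0.073 in mutants 1 and 2 against controls 1 and 2 and 0.28 in mutant 4 against control 4. Nkd1 had the smallest spread of the 10 genes, with an SD of 0.11 on the log2 scale over the 8 libraries.

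The inhibitors that act at the cell surface lay on opposite sides. Notum, a secreted esterase that inactivates Wnt ligands by removing their lipid, had 182, 197, 253 and 273 normalized counts in mutants 1 to 4 and 111, 215, 169 and 111 in controls 1 to 4. Mutants 3 and 4 were the highest, and control 2 lay above mutants 1 and 2. The means were 226 ± 44 in mutants and 151 ± 50.2 in controls (SD, n = 4 each), and the log2 fold change was 0.61 (SE 0.25, 95% interval 0.053 to 1.17, limma adjusted p = 0.361). Notum had 40 estimated counts in control 4, the lowest single value among the 10 genes. Its log2 difference was 0.29 between mutants 1 and 2 and controls 1 and 2, and 1.30 between mutant 4 and control 4.

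Znrf3, a membrane ubiquitin ligase that removes Frizzled receptors, had 596, 503, 511 and 191 normalized counts in mutants 1 to 4 and 964, 606, 932 and 371 in controls 1 to 4. Mutant 4 and control 4, which share a name number, were the lowest of their groups. The log2 fold change of -0.70 (SE 0.40, 95% interval -1.58 to 0.19, limma adjusted p = 0.527) was the most negative of the 10 genes and had the widest interval. Without control 4 it was -0.98, with a limma adjusted p of 0.199, and without mutant 4 it was -0.32. The Znrf3 difference was -0.48 in mutants 1 and 2 against controls 1 and 2 and -0.96 in mutant 4 against control 4. Lgr5, a receptor for R-spondins, which protect Frizzled receptors from Znrf3, had 113, 102, 244 and 137 normalized counts in mutants 1 to 4 and 126, 168, 156 and 199 in controls 1 to 4. Mutant 3 was the highest of all libraries and mutant 2 the lowest, so the mutant group spanned the whole control range. The log2 fold change of Lgr5 was -0.19 (SE 0.28, 95% interval -0.82 to 0.44, limma adjusted p = 0.835). It moved to -0.45 without mutant 3 and -0.30 without control 1, and to -0.038 without mutant 2, -0.088 without mutant 1 and -0.086 without control 4. The Lgr5 difference was -0.43 in mutants 1 and 2 against controls 1 and 2 and -0.54 in mutant 4 against control 4.

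Sp5, a zinc-finger transcription factor that Wnt induces directly and whose promoter is printed above, had 359.7, 335, 183 and 152 normalized counts in mutants 1 to 4 and 477, 368, 447 and 249 in controls 1 to 4. Mutants 3 and 4 were below every control, and control 4 was below mutants 1 and 2. The means were 258 ± 105 in mutants and 385 ± 102 in controls (SD, n = 4 each), and the log2 fold change was -0.63 (SE 0.31, 95% interval -1.33 to 0.066, limma adjusted p = 0.465). The Sp5 log2 difference was -0.27 between mutants 1 and 2 and controls 1 and 2, and -0.71 between mutant 4 and control 4. Without mutant 4 its fold change was -0.41.

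The spread over the 8 libraries differed widely among the 10 genes. The SD on the log2 scale was 0.75 for Znrf3, 0.60 for Sp5 and 0.49 for Notum, and 0.11 for Nkd1, 0.15 for Lef1 and 0.20 for Tcf7l2. The median was 0.34 for the 10 genes, beside 0.24 for all genes tested. After centring each gene on its mean, Lef1 and Nkd1 were the closest pair, with a root mean square difference of 0.16 on the log2 scale. This distance is not scaled by spread, so genes of small spread lie close whatever their pattern. Lef1 and Nkd1 had the smallest SDs of the 10 genes, so their closeness does not show that they vary together. Tcf7l1 and Sp5 differed by 0.23, and Tcf7l1 and Znrf3 by 0.36. Notum was the farthest from these, at 0.90 from Sp5 and 0.99 from Znrf3. Among 14128 other named genes tested, the nearest to Sp5 were Myef2 (0.076), Eno3 (0.096) and Fam107a (0.10), those nearest to Znrf3 were B4galt5 (0.20), Klhl11 (0.22) and Pfas (0.22), and those nearest to Notum were Cyth4 (0.12), Arhgap27 (0.13) and Slfn3 (0.14). Of these neighbours, Eno3, Klhl11, Pfas, Arhgap27 and Slfn3 are on chromosome 11, the chromosome of Etv4, Znrf3 and Notum. These distances describe 8 libraries that also differ in genotype, and they carry no test.

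**Figure D4:**
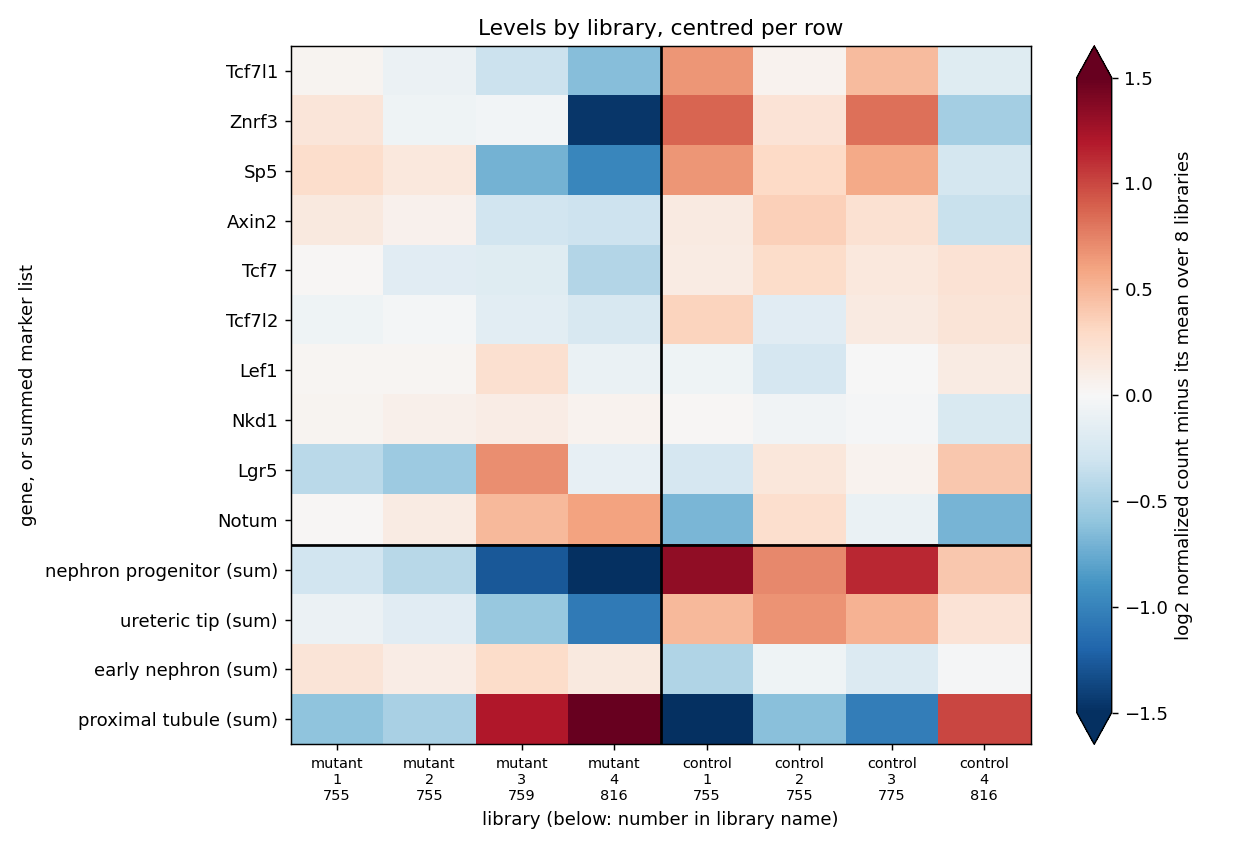
Log2 normalized count of each gene, or of the summed marker list below the horizontal line, minus its mean over the 8 libraries (colour), by library (x axis), with mutants left of the vertical line. Colours saturate at the ends of the scale. Sp5 and Axin2 are low in mutants 3 and 4 and in control 4, the libraries in which the proximal tubule sum is high.

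Levels of cell type markers moved with several of these patterns. Nephron progenitor markers summed to 4219.6 to 10611 normalized counts in mutants and 17048 to 32508 in controls, with 8 of 8 negative and 2 past the limma threshold. Ureteric tip markers summed to 4860.1 to 9486 in mutants and 11627 to 16120.4 in controls, with 6 of 6 negative and 1 past it. Of all genes tested, 48.3% were negative and 0.301% passed. In whole kidneys, fewer cells of a type and less RNA per cell cannot be told apart, and the part of these shifts in the values of Tcf7, Tcf7l1 and Sp5 was not tested. The proximal tubule list summed to 1272, 1385, 4459 and 10179 in mutants 1 to 4 and 532, 1257, 945 and 3858 in controls 1 to 4, so that mutants 3 and 4 and control 4 stood above the others in both genotypes. Without those 3 libraries, a choice made after seeing the data, the log2 fold change was -0.26 for Tcf7, -0.42 for Tcf7l1, -0.30 for Sp5 and 0.25 for Notum, with limma adjusted p from 0.262 to 0.744 for these 4 genes. None of the 10 genes passed the limma threshold there, nor without control 4 alone. Tcf7 and Lef1 are also known from lymphocytes, whose markers were near 0, at 1.63 to 29.9 in mutants and 4.66 to 24.9 in controls summed over the 4 genes with a row, and Cd3d was at 0 in mutants 1 to 3 and control 3. Adrenal cortex markers, included because Wnt signalling is active in that neighbouring tissue, summed to 178 to 289 in mutants and 216 to 359.7 in controls. Cyp21a1 was at 0 in mutants 1, 3 and 4 and controls 1, 2 and 4. Nr5a1, the first marker of this list, was at 22.8, 24.5, 20.9 and 26.4 in mutants 1 to 4. It was at 2.76, 7.11, 21.4 and 0 in controls 1 to 4. Of the 4 adrenal markers tested, 2 had a negative log2 fold change and 0 passed the limma threshold. Endothelial markers summed to 18439 to 21092 in mutants and 13143 to 17274 in controls, stromal markers to 22074 to 25259 in mutants and 19099 to 26625 in controls, and macrophage markers to 2132 to 2527 in mutants and 1227 to 1968 in controls. Ureteric trunk markers summed to 12893 to 20069.7 in mutants and 9537 to 16315 in controls. The log2 fold change was negative for 0 of 6 endothelial, 3 of 8 stromal, 0 of 5 macrophage and 1 of 6 trunk markers. It was negative for 0 of the 4 proximal tubule markers tested. In each of these lists 0 genes passed the limma threshold. Gonad markers summed to 0 to 17.9 in mutants and 3.68 to 12.6 in controls.

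The rest of the pathway was described with 57 other genes, of which Dkk4, Sp8 and Cdx1 were not tested. Of the 54 tested, 0 passed the limma threshold, which 0.301% of all genes tested passed, and with limma voom 1 passed, Pax8. An unadjusted limma p below 0.05 was reached by 15 of the 54, where 12.0% of all genes tested reached it. The median log2 fold change was 0.025, with 26 genes negative and 28 positive. The destruction complex and its relay stood closest to 0. All 12 of these genes lay between -0.16 and 0.21, with 6 on each side and a median of 0.0011, and none had an unadjusted p below 0.05 by limma or by voom. Ctnnb1, which encodes beta-catenin itself, had a log2 fold change of -0.024 (SE 0.11), and Dvl1 and Dvl3, Dishevelled genes with the smallest p of this list, had 0.21 (SE 0.14) and -0.16 (SE 0.19).

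Of 12 nuclear partners of TCF/LEF factors, 11 had a negative log2 fold change, beside 48.3% of all genes tested, with a median of -0.079. An unadjusted limma p below 0.05 was reached by 2 of the 12, Tle5 and Tle2, where 12.0% of all genes tested reached it. The 12 genes were not tested as a set. Tle5, which encodes a short Groucho-family protein that lacks the repression domains of its relatives, had 15167 ± 380.0 normalized counts in mutants and 18927 ± 1425 in controls (SD, n = 4 each), a log2 fold change of -0.32 (SE 0.08) and a limma adjusted p = 0.136. Its groups did not overlap. Tle2, a Groucho co-repressor, was at -0.54 (SE 0.24, limma adjusted p = 0.407). Among 15 receptor genes, 10 were positive and 5 negative, with a median of 0.20. An unadjusted limma p below 0.05 was reached by 6 of the 15, 4 higher and 2 lower, where 12.0% of all genes tested reached it. The 15 genes were not tested as a set either. The Frizzled genes with the smallest p lay on opposite sides without overlap between groups, as Fzd3 was at -0.29 (SE 0.09, limma adjusted p = 0.222) and Fzd8 at 0.25 (SE 0.08, limma adjusted p = 0.265).

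Other Wnt targets had a median log2 fold change of 0.18 over 9 tested genes, with 6 positive and 3 negative. Of the 9, 3 had an unadjusted limma p below 0.05, 1 lower and 2 higher, beside 12.0% of all genes tested. Myc, a growth regulator and Wnt target in many tissues, had 1269 to 1301 normalized counts in mutants and 1517 to 1841 in controls. It had a log2 fold change of -0.40 (SE 0.08) and a limma adjusted p = 0.0834. Ccnd1, the cyclin D1 gene, stood on the opposite side at 0.33 (SE 0.11, limma adjusted p = 0.273). The genes known to respond to beta-catenin when nephron progenitors are induced were mostly on the higher side, with 5 of 6 positive, a median of 0.44 and none past the limma threshold. An unadjusted limma p below 0.05 was reached on the higher side by 4 of the 6, beside 6.33% of all genes tested. They were not tested as a set. Pax8, which marks the earliest nephron structures, led them at 0.64 (SE 0.12, limma adjusted p = 0.0688), with groups that did not overlap, and Jag1, a Notch ligand, was at 0.57 (SE 0.16, limma adjusted p = 0.19). The authors' deposited table lists 3 of the 57 genes, Pax8, Jag1 and Lhx1, with log2 fold changes of 0.75, 0.69 and 0.65. It lists 644 genes in all, beside 21291 gene rows in the deposited expression table. Early nephron markers, which share Wnt4, Fgf8, Pax8, Lhx1 and Jag1 with this list, summed to 42079.8 to 47136 in mutants and 28440.0 to 38554 in controls. They also share Ccnd1 and Dkk1 with the other Wnt targets. Ccnd1 was the largest part of each sum, at 22380.0 to 26339.6 in mutants and 15897 to 21934 in controls. Of the 10 markers, 2 had a negative log2 fold change and 0 passed the limma threshold. Axin2 and Sp5 had negative fold changes beside positive ones for Pax8 and Jag1, and the difference between these lists was not tested.

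**Figure D5:**
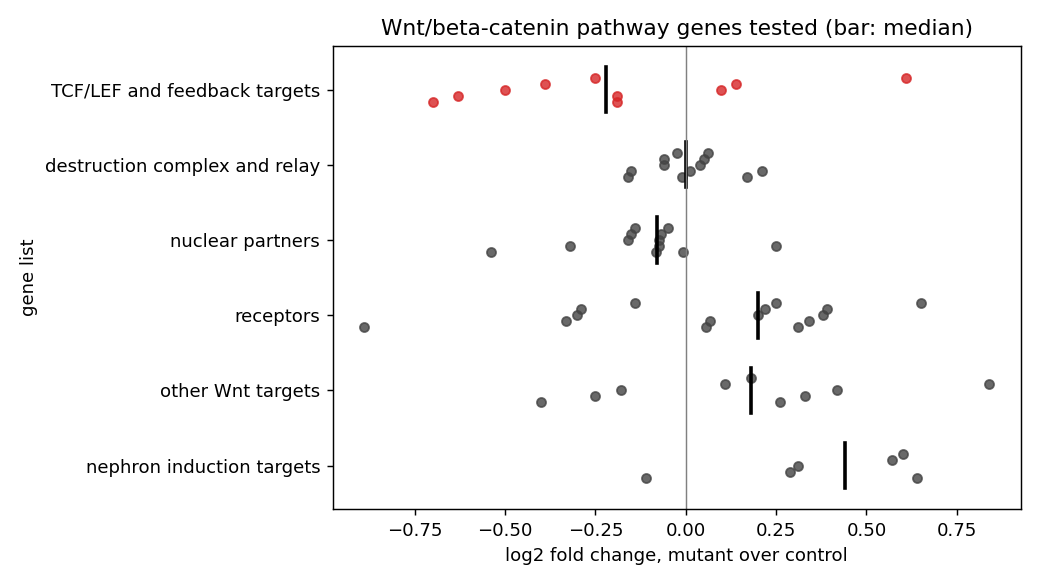
Log2 fold change of mutant over control (x axis) of each tested gene in the TCF/LEF and feedback set and in 5 other pathway lists (y axis), with vertical bars at the medians. The medians run from -0.22 for the TCF/LEF and feedback set to 0.44 for the nephron induction targets.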

How the data were processed

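The deposited log2 table covers 21291 gene rows in 8 libraries, whose group and number come from the sample titles. The submitters' processing notes name DESeq2 1.40.2, kallisto 0.46.0 and fastp 0.23.2, with build mm10; what each did is not stated in the labels or files. Judged from its values, the deposited log2 table holds log2(estimated count + 1) with no depth correction. Of all its values 73.4% return whole numbers (within 1e-06), and of those above 0, 67.8% do. These estimated counts were divided by median-of-ratios size factors (0.361 to 1.27). Genes reaching 10 in 4 or more libraries were tested two-sided with limma 3.58.1 under R 4.3.3, with a trend in eBayes and no covariate besides genotype, and calls were made at 0.05 after Benjamini-Hochberg adjustment. Each library is the kidney pair of 1 embryo, and controls are littermates of mutants per the labels' protocols. Per the file headers, the authors' second table holds a mean normalized count (signal), log2 fold changes, a test score and p-values.

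The 10 genes and all lists were chosen with earlier results of these data known. Named pathway genes are the 2 of smallest p in each list; Ctnnb1 and Lhx1 were added after seeing their values. For the 3 most variable of the 10 genes, the 3 nearest other genes are named. Gene positions and transcript lengths come from GENCODE M21 (GRCm38, the assembly of mm10), and promoters from RefSeq. The fit was tested on simulated data, where it recovered 75% of changes of 1 log2 unit and 92% of changes of 2 log2 units. Of its calls there, 4.02% were on unchanged genes. The fold changes of the 10 genes were all smaller, and changes of that size were not simulated. The simulation also gave no library a composition of its own, such as that of control 4. Alternatives changed the filter, pseudocount, scaling, test, library weights, blocks or libraries; leaving out libraries kept the same 14974 genes. Drawing used Python 3.11.15 with matplotlib 3.10.9.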

Additional observations from a re-analysis of the deposited data

Results flagged for a closer look

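Among 44 groups of 4 libraries examined for a sample far from the other 3, 3 stood out, where chance gives about 1 in 20 groups, and 0 of these belonged to the 10 genes. Etv4 had 2311 normalized counts in control 4, below the 2803 to 2816 of the other controls. Tle5 had 14599 in mutant 3, the lowest mutant, and remained below every control in all 4 mutants. Fzd8 had 1399 in mutant 4, the highest mutant.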

How the results depend on the processing

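Of 240 fold changes of the 10 genes under 24 alternatives, 236 kept their direction. The 4 that reversed came from leaving depth uncorrected, which put the median gene at 0.48, with Tcf7 at 0.084, Tcf7l2 at 0.22, Axin2 at 0.28 and Lgr5 at 0.28. Total count scaling put the median gene at 0.14. With limma library weights 2 of the 10 genes passed, Tcf7 (adjusted p = 0.0495) and Tcf7l1 (adjusted p = 0.0444), and under the other alternatives 0 did. In that weighted fit 748 of all 14974 genes passed, against 45 in the main fit. Its weights ran from 0.196 for control 4 to 3.43 for control 3. Over all alternatives the limma adjusted p of Tcf7 ran from 0.0495 to 0.891 and that of Tcf7l1 from 0.0444 to 0.958. Both upper ends came from leaving depth uncorrected. Under the other alternatives the largest was 0.53 for Tcf7, with total count scaling, and 0.638 for Tcf7l1, without mutant 4. The cause of the remaining spread was not tested. Of the pathway genes, 1 passed with total count scaling, with voom, or in mutants 1 and 2 and controls 1 and 2 alone, 2 with mutant 4 and control 4 left out, with control 4 and mutants 3 and 4 left out or at an adjusted p below 0.1, and 6 with library weights. With single libraries left out 0 to 1 passed, Pax8 without control 4.

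The number of genes past the threshold was 45 of 14974. It was 11 with total count scaling, 80 without depth correction, 69 with voom, 28 without trend, 748 with library weights, and 122 at an adjusted p below 0.1. It was 190 without mutant 4 and control 4, 16 in mutants 1 and 2 and controls 1 and 2 alone, and, in a choice made after seeing the data, 148 without control 4 and mutants 3 and 4. With single libraries left out it ran from 9 to 178, at 13, 19, 9 and 22 without mutants 1 to 4 and 13, 9 and 178 without controls 1, 3 and 4.

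With the replicate number as a block (replicate block), 133 genes passed, with 0 of the 10 and 1 pathway gene, Pax8. With the library-name number as a block 36 passed, 19 of them among the 45, with 0 of the 10 and 0 pathway genes, and Lgr5 at -0.47 and Axin2 at -0.078. Libraries of the same replicate number had correlations of their deviations from the group mean, across genes, of 0.27, 0.098, -0.13 and 0.35 for numbers 1 to 4. Only mutants 1 and 4 correlated best with the control of their own number. With 4 libraries per group, these correlations cannot decide whether the samples are paired. Depth limits Notum and Lgr5 most, with 40 and 72 estimated counts in control 4.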
